A study of Homo sapiens with 12 samples.

Results

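The S100 genes encode small proteins that bind calcium through paired EF-hand loops, and 10 of them are described here in JIMT1 cells: S100A3, S100A4, S100A6, S100A7, S100A8, S100A9, S100A10, S100A11, S100A14 and S100P. They are part of the 21 S100 genes with a probe and were chosen by their levels and differences on these same arrays, which earlier results had shown. What they differ by between growth conditions is therefore a description, with no p-value. The 10 genes have 12 probes of 47323 on the array, and 9 of the 10 genes, with 11 probes, were detected on both arrays of at least 1 group. They are set beside all 10970 genes that met the same requirement. S100A7 did not meet it.

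JIMT1 cells come from a breast cancer with amplified HER2 that resists trastuzumab, and lack the receptors for estrogen and progesterone. RNA came from 6 groups of 2 biological replicates each, hybridised to human Illumina arrays. The xenografts were tumours taken 43 days after JIMT1 cells had been injected, mixed with Matrigel, into mammary fat pads of mice of the BALB/c-nude strain, so that cells of the host can be present in them. PH7d and PH4d cells grew for 7 and 4 days on polyHEMA, a coating that prevents attachment. MG7d and MG4d cells grew for 7 and 4 days in Matrigel, a gelled extract of basement membrane that was dissolved with Dispase before the RNA was isolated, in medium with less serum than the other cultures. 2D7d cells grew for 7 days as a monolayer and served as the common control. All groups are 1 cell line, and the serum and the Dispase cannot be told apart from the growth in Matrigel. The p-values for the other genes measure the spread between 2 biological replicates per group, with the spread pooled over the 6 groups.

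Most S100 proteins work as dimers that expose a binding surface for a target protein once calcium is bound. Inside the cell they bind annexins, the cytoskeleton and enzymes, and some are released and bind receptors such as AGER (RAGE) and TLR4. S100A8 and S100A9 form calprotectin, a heterodimer that sequesters zinc and manganese and is abundant in neutrophils and monocytes. Epithelial cells also make it under stress or inflammation. Most of the family sits in 1 cluster on chromosome 1, where it flanks the genes of the cornified envelope of the skin in the epidermal differentiation complex.

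Levels are given as log2 values after background correction and quantile normalization, each as replicate 1 and replicate 2. A probe was called detected where its detection p-value, which sets it against that array's negative controls, was under 0.01. Between 13952 and 18430 probes per array were detected. The replicates lay far apart on polyHEMA, with a median absolute gap over all genes of 0.69 in PH7d and 0.80 in PH4d, against 0.15 to 0.23 in the other groups. Replicate 2 had the higher level for 7 of the 9 tested S100 genes in PH7d and for 9 of 9 in PH4d, where the widest gap was 1.18. Over all genes replicate 2 was higher for 54.8% in PH7d and 54.9% in PH4d. The main differences that involve polyHEMA are therefore also given without each array. All 7 genes expected of an epithelial line with amplified HER2 (ERBB2, GRB7, KRT8, KRT18, KRT19, EPCAM, CDH1) were detected on both arrays of every group. PGR, the progesterone receptor, was detected on no array, but ESR1, the estrogen receptor, was detected on all 12.

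The starts of the genes whose levels differed most between groups are shown with the bases upstream of their RefSeq start site (GRCh38.p14), 5′ to 3′ on the strand of the gene, and all 10 genes were matched. Capitals mark matches to TATAAA (the TATA box), TGANTCA (AP-1), TTGCNNAA (C/EBP), TTCNNNGAA (STAT) or GAAA followed after 2 bases of any kind by another GAAA (ISRE, the interferon-responsive element), each searched on both strands. S100A8 stands at chr1:153391189-153391438 on the minus strand, upstream of the outermost of its 3 listed start sites. S100A9 stands at chr1:153357604-153357853 on the plus strand, S100P at chr4:6693628-6693877 on the plus strand and S100A3 at chr1:153549259-153549508 on the minus strand.
S100A8: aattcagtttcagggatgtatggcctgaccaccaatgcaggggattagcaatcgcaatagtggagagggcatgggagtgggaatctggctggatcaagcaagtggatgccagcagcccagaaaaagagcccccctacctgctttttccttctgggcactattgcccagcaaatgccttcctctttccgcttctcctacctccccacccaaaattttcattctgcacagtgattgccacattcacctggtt
S100A9: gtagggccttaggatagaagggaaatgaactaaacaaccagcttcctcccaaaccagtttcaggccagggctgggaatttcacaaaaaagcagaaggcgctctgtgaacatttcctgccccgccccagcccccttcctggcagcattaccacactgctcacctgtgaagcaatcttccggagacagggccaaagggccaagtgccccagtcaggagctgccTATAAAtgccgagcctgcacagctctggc
S100P: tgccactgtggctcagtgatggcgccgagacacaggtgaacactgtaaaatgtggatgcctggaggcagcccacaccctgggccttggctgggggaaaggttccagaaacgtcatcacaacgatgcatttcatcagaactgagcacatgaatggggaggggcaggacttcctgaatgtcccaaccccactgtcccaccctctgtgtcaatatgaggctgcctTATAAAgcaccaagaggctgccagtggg
S100A3: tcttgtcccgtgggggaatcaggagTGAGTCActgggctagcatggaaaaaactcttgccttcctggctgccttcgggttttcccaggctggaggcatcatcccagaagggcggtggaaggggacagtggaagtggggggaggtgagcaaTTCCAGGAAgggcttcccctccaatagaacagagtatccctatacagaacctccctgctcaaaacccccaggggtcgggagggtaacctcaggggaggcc
The 30 bases before the second start site of S100A8, at chr1:153391074-153391103 on the minus strand, held a TATA box.
S100A8 second start: cTATAAAaaggagctgcctctcagccctgc

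A TATAAA on the gene's strand 20 to 40 bases before the start was present for 5 of the 10 genes, S100A4, S100A7, S100A8, S100A9 and S100P, and in 2.3% of 35114 promoters. S100A3, S100A6, S100A10, S100A11 and S100A14 had none in this interval. The AP-1 letters were found upstream of S100A3 and of no other of the 10 genes, and the same held for the STAT letters. Each motif was present in 6.57% of all promoters. S100A11 had the C/EBP letters, which 9.05% of promoters held, and none of the 10 genes had the ISRE letters, which 3.02% held. The search for TATAAA was added after these sequences had been read. Over the whole 250 bases on either strand, TATAAA was present in 10.7% of promoters.

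S100A8 split the 6 groups by detection. It was detected on both arrays of the xenografts, PH7d and PH4d and on no array of MG7d, MG4d and 2D7d. The level was 10.47 and 10.08 in the xenografts, 12.20 and 11.36 in PH7d and 8.57 and 9.53 in PH4d. In MG7d it was 5.37 and 5.44, in MG4d 5.57 and 5.22 and in 2D7d 5.08 and 5.88. The lowest array that detected S100A8 lay well above the highest that did not, so these 2 sets of groups did not overlap. Because 2D7d did not detect the gene, its folds are bounds. The mean level in the brighter group was set against, per array of the dimmer group, the lowest signal among detected probes or the signal of the probe itself, whichever was higher. Such a bound holds for the background-corrected scale used here and not for other processing, under which the differences of dim genes can be smaller. On this scale S100A8 was at least 49.13-fold higher in PH7d than in 2D7d, at least 7.417-fold higher in PH4d and at least 17.3-fold higher in the xenografts. The measured log2 differences, which include the undetected signal of 2D7d, were 6.30, 3.57 and 4.79. They were 4.93, 2.37 and 3.48 with no background correction and 4.08, 1.63 and 2.61 with the authors' processed values, which lie below the bounds. Within polyHEMA the level was higher on both day 7 arrays than on both day 4 arrays, by 2.73 ± 0.42 (SE), and by 2.25 to 3.21 without any 1 array. The xenografts differed from PH7d by -1.51 ± 0.42, with both arrays below both. In bulk RNA such as this, fewer cells that express a gene and less of its RNA per cell cannot be told apart.

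S100A9, the partner of S100A8 in calprotectin, was detected on all 12 arrays and was also highest on polyHEMA. Its level was 11.07 and 11.14 in the xenografts, 13.44 and 14.03 in PH7d and 12.30 and 13.07 in PH4d. In MG7d it was 9.54 and 9.44, in MG4d 11.11 and 10.74 and in 2D7d 10.38 and 10.87. The polyHEMA arrays lay above the other 8 arrays, and both MG7d arrays lay below all the others. Against 2D7d the difference was 3.11 ± 0.33 in PH7d, which is 8.62-fold, and 2.06 ± 0.33 in PH4d. Without any 1 array these ranged from 2.81 to 3.40 and from 1.67 to 2.44. The xenografts differed from 2D7d by 0.48 and MG4d by 0.30, while MG7d was lower by -1.13. In the xenografts the S100A9 level was thus 1.394-fold that of the monolayer, which did not detect S100A8. Over the 12 arrays the levels of S100A8 and S100A9 correlated with Pearson's r = 0.80, a description in which 6 of the 12 values of S100A8 were not detected.

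S100P, first known from the placenta and a ligand of AGER and of ezrin, separated the conditions in another order. The level was 7.98 and 8.21 in the xenografts, 13.30 and 13.81 in PH7d and 13.30 and 13.86 in PH4d. In MG7d it was 10.20 and 10.21, in MG4d 11.56 and 11.34 and in 2D7d 11.96 and 11.99. PH7d and PH4d overlapped each other and lay above the monolayer, and the MG4d, MG7d and xenograft arrays followed below it in this order with no overlap. Against 2D7d the difference was -3.88 ± 0.27 in the xenografts, a 14.75-fold lower level, and 1.58 and 1.61 in PH7d and PH4d. MG7d was lower by -1.77 and MG4d by -0.52. Between the xenografts and PH7d the gap reached -5.46 ± 0.27, or 44.05-fold, with -5.72 to -5.20 without any 1 array. S100A10 ran against S100P over the 12 arrays, with r = -0.77.

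S100A3, a cysteine-rich protein known from the hair cuticle, had its highest level in the monolayer. The level was 6.26 and 6.65 in the xenografts, 4.98 and 6.05 in PH7d and 4.89 and 6.07 in PH4d. In MG7d it was 6.31 and 6.75, in MG4d 7.27 and 6.63 and in 2D7d 8.81 and 9.16. Both monolayer arrays lay above all 10 others. On polyHEMA the gene was at the detection limit, with replicate 2 of PH7d detected and the other 3 arrays not. The difference from 2D7d was -2.53 in the xenografts, -3.47 in PH7d, -2.45 in MG7d and -2.03 in MG4d, each with an SE of 0.47. In PH4d S100A3 was at least 9.286-fold lower on this scale, and its measured difference of -3.50 was -2.91 without replicate 1 and -4.09 without replicate 2 of PH4d. It was -2.31 with no background correction and -1.56 with the authors' processed values, both smaller than the bound. With the authors' values the 5 differences of S100A3 were -1.56 to -1.14.

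**Figure D1:**
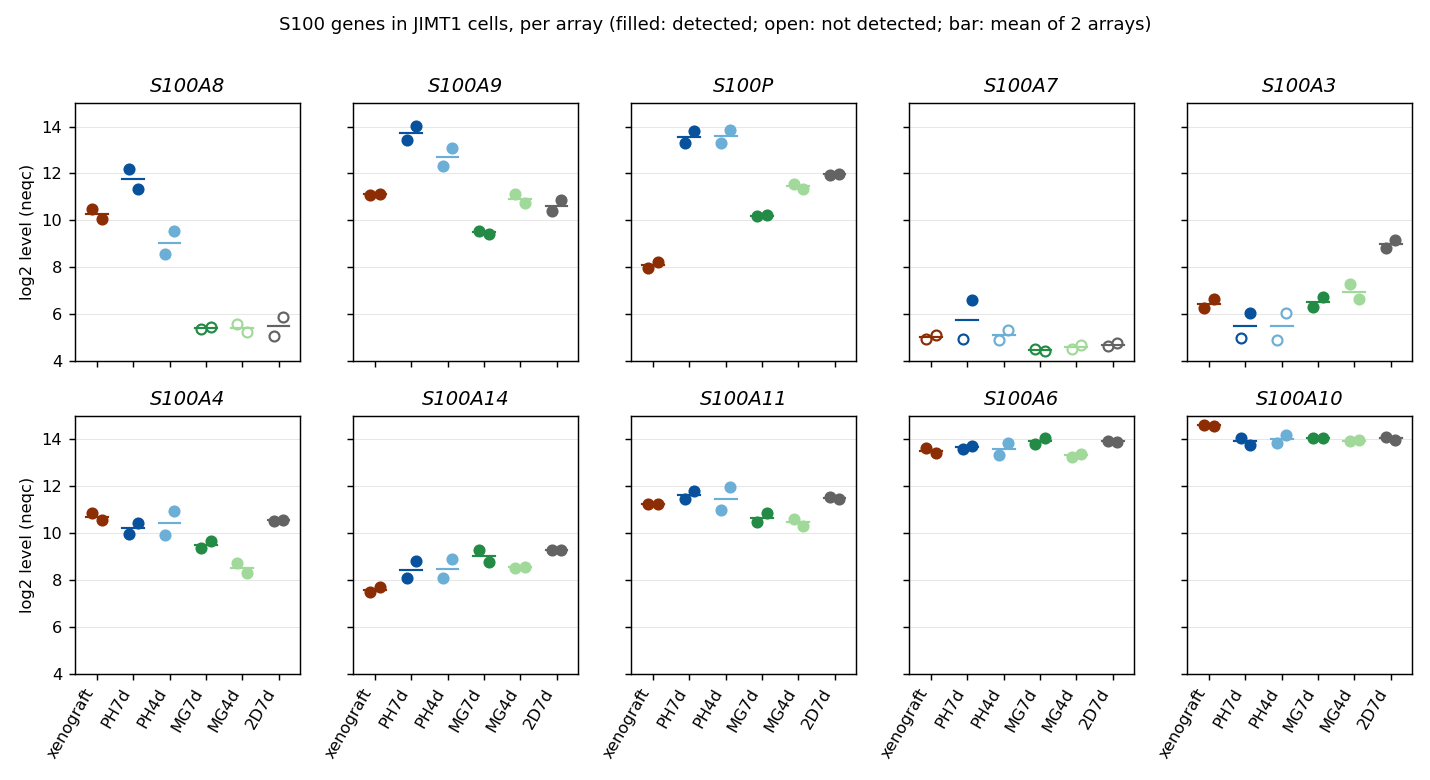
Log2 level of the 10 S100 genes on each of the 12 arrays, with the growth conditions on the horizontal axis. Points are arrays, filled where the probe was detected and open where it was not, and bars are means of 2 arrays. S100A8 is open in MG7d, MG4d and 2D7d, S100P spans levels from 7.98 in a xenograft to 13.86 in PH4d, and S100A6 and S100A10 run almost flat.

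S100A4, or metastasin, which binds non-muscle myosin IIA, was lowest in Matrigel. Its level was 10.83 and 10.55 in the xenografts, 9.96 and 10.43 in PH7d, 9.89 and 10.92 in PH4d, 9.34 and 9.63 in MG7d, 8.72 and 8.30 in MG4d and 10.52 and 10.54 in 2D7d. The Matrigel arrays lay below the other 8 arrays, and MG4d lay below MG7d. The difference from 2D7d was -2.02 ± 0.35 in MG4d and -1.04 in MG7d, against -0.34 in PH7d, -0.13 in PH4d and 0.16 in the xenografts. A second S100A4 probe gave -2.24 in MG4d and -1.17 in MG7d, and 0.06, 0.27 and 0.84 in PH7d, PH4d and the xenografts. The 2 probes thus had the same order of groups in Matrigel and differed most in the xenografts.

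S100A11, a partner of annexin A1, followed S100A4 closely over the arrays, with r = 0.88. It was at 11.24 and 11.21 in the xenografts, 11.44 and 11.77 in PH7d, 10.96 and 11.94 in PH4d, 10.47 and 10.83 in MG7d, 10.60 and 10.28 in MG4d and 11.51 and 11.46 in 2D7d. The 4 Matrigel arrays were the 4 lowest. S100A11 differed from 2D7d by -1.04 ± 0.33 in MG4d and -0.84 in MG7d, and by -0.26 to 0.12 in the other groups.

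S100A14, an epithelial S100 protein, was lowest in the xenografts. Its level was 7.46 and 7.70 in the xenografts, 8.08 and 8.79 in PH7d, 8.06 and 8.86 in PH4d, 9.27 and 8.75 in MG7d, 8.51 and 8.54 in MG4d and 9.26 and 9.28 in 2D7d. Both xenograft arrays lay below all 10 others. The difference from 2D7d was -1.69 ± 0.34 in the xenografts and -0.84 to -0.26 in the cultures.

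S100A6 (calcyclin) and S100A10 (p11, the partner of annexin A2) varied least. S100A6 differed from 2D7d by -0.60 to 0.02 and S100A10 by -0.12 to 0.55, with SEs of 0.25 and 0.22. S100A10 was at 14.59 and 14.56 in the xenografts, above all 10 culture arrays, whose levels ran from 13.76 to 14.16. Its second probe also had the xenografts highest, 0.63 above 2D7d. When the arrays were scaled to the same median in place of quantile normalization, the difference of the xenografts from 2D7d was 0.09 for S100A10 and those of the 4 cultures were -0.49 to -0.30.

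S100A7, or psoriasin, an antimicrobial S100 protein of inflamed skin, was detected on 1 array, replicate 2 of PH7d, with a level of 6.60. The other 11 arrays had levels of 4.45 to 5.35, none of them detected. Replicate 1 of PH7d was at 4.93, so the 2 arrays of that group disagreed, and no fold is given.

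**Figure D2:**
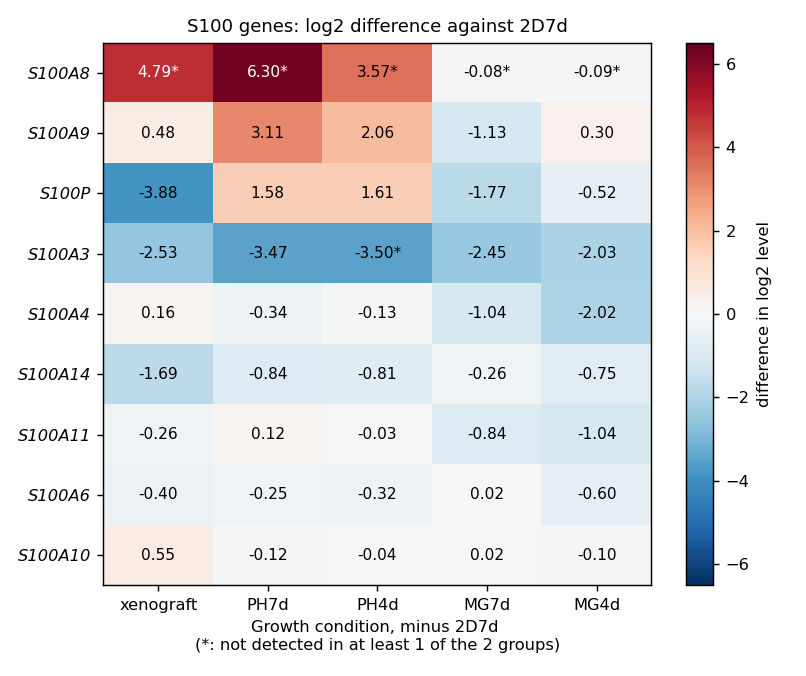
Difference in log2 level against 2D7d for the 9 detected S100 genes (rows) in the 5 other growth conditions (columns), red for higher and blue for lower. An asterisk marks a value for which at least 1 of the 2 groups did not detect the gene, so that it is a measured difference and no exact fold. S100A8, marked in all 5 columns, reaches 6.30 in PH7d, the S100A3 row is blue in all 5 columns from -3.50 to -2.03, and S100P is 1.58 in PH7d but -3.88 in the xenografts.

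Set against the share of all genes, the 9 detected S100 genes were described by the number that met the limits used here, an adjusted p under 0.05 in limma (Benjamini-Hochberg over 10970 genes) and a difference of at least 2-fold. In PH7d against 2D7d, S100A8, S100A9 and S100P were above the limits, 3 of 9, where 3.87% of all genes were, and S100A3 was below, where 2.36% of all genes were. The same 4 genes met them in PH4d in the same directions, with 2.58% of all genes above and 1.84% below. In the xenografts S100A8 was above, where 16.4% of all genes were, and S100A3, S100A14 and S100P were below, where 14.7% were. S100A3, S100A4 and S100A11 were below in MG4d (11.5% of all genes) and S100A3, S100A9 and S100P in MG7d (10.3%). No S100 gene was above in either Matrigel group, where 10.2% of all genes were in MG4d and 10.8% in MG7d. The 10 genes were chosen with such values known, so nothing is read from these counts. The median difference of the 9 genes was -0.26 for the xenografts, -0.12 for PH7d, -0.04 for PH4d, -0.84 for MG7d and -0.60 for MG4d, against -0.07 to 0.05 over all genes. The spread was pooled over the 6 groups, so the wide gaps on polyHEMA enter every call, and SEs of polyHEMA differences can be too narrow. A call lost without 1 array need not mean that replicates disagreed. S100P in MG7d, at 10.20 and 10.21 against 11.96 and 11.99 in 2D7d, was lost in this way. A call kept without 1 polyHEMA array does not test the gap between the polyHEMA replicates either. The group of that array then adds nothing to the pooled spread, which favours such calls, here and for the listed genes below. With any 1 array of the groups compared left out, no S100 gene met the limits in MG4d or in MG7d, and S100A3 and S100A14 no longer did in the xenografts. Without either array of 2D7d S100P no longer met them in PH7d and PH4d, and without replicate 1 of 2D7d neither did S100A3 and S100A9 in PH4d. S100A8 and S100P in the xenografts, S100A8, S100A9 and S100A3 in PH7d and S100A8 in PH4d met them without any 1 array.

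Direct comparisons of the 3D conditions asked which of them share an S100 profile. S100A8, S100A9 and S100P met the limits on both days in polyHEMA against Matrigel, all higher on polyHEMA. S100A11 was higher by 1.01 on day 4 and 0.96 on day 7, and the measured differences of S100A3 were -1.47 and -1.02, without meeting the limits. On the background-corrected scale S100A8 was at least 67.84-fold higher in PH7d than in MG7d and at least 9.545-fold higher in PH4d than in MG4d. With the authors' processed values its log2 differences were smaller than these bounds, at 4.10 in PH7d against MG7d and 1.65 in PH4d against MG4d. S100A9 was higher by 4.24 ± 0.33 in PH7d than in MG7d, which is 18.92-fold, and by 1.76 in PH4d than in MG4d. S100P was higher by 3.35 in PH7d than in MG7d and by 2.13 in PH4d than in MG4d. S100A4 met the limits on day 4, with 1.89 ± 0.35 between PH4d and MG4d, and was 0.71 higher in PH7d than in MG7d. In all, 4 of the 9 genes were above the limits on day 4 and 3 on day 7, where 8.33% and 5.57% of all genes were, and none was below, where 3.91% and 3.84% were. Without MG4d replicate 2 the day 4 count was 2, as S100A4 and S100A9, at 1.68 and 1.57, no longer met the limits.

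Between the xenografts and MG7d the S100 genes split both ways. S100A8 was at least 23.89-fold higher in the xenografts on the background-corrected scale, with a log2 difference of 2.63, below that bound, in the authors' processed values. S100A9 was higher by 1.61 ± 0.33, while S100P was lower by -2.11 and S100A14 by -1.43. These 2 genes above and 2 below stood beside 3.32% and 2.44% of all genes. Without any 1 array of the xenografts or MG7d the calls of S100A9 and S100A14 were lost, with differences of 1.56 to 1.67 and of -1.69 to -1.17. S100A3 overlapped between the xenografts and MG7d, with a difference of -0.08 ± 0.47. Between the xenografts and PH7d, S100P and S100A9 were lower in the xenografts, by -5.46 and -2.63, beside 3.99% of all genes, and none was higher beside 3.35%. Without replicate 2 of PH7d that count was 3, and the calls of S100P and S100A9 stood without any 1 array.

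**Figure D3:**
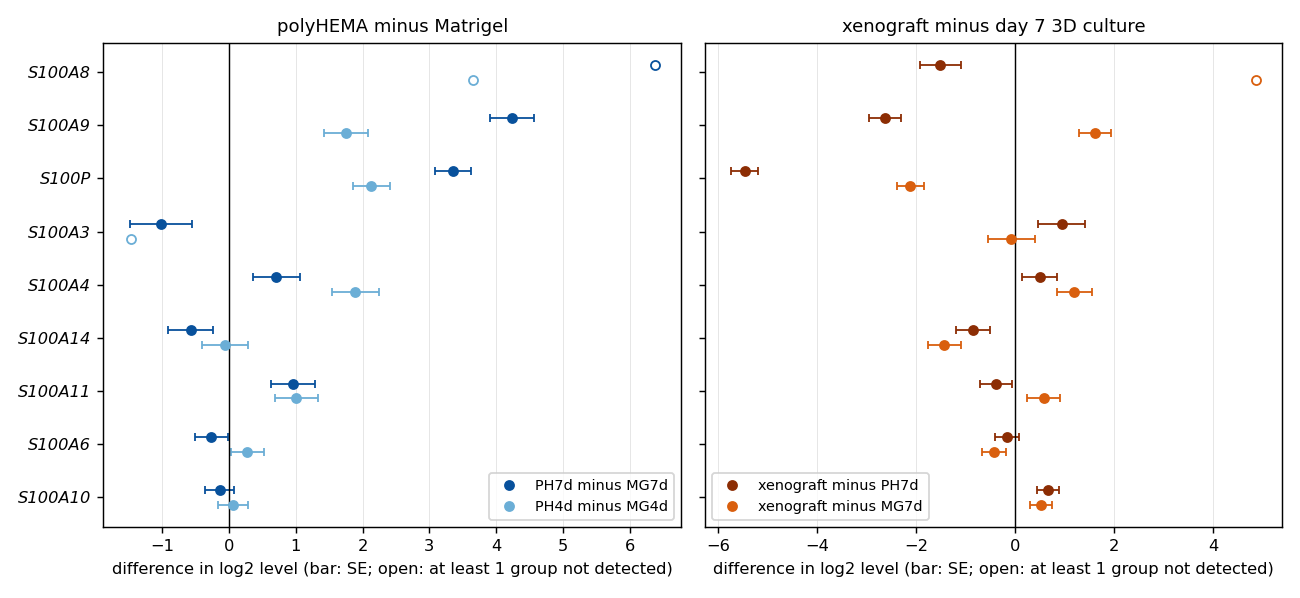
Difference in log2 level of the 9 detected S100 genes, with its SE as a bar, or as an open point with no bar where at least 1 of the 2 groups did not detect the gene, between polyHEMA and Matrigel on the same day (left) and between the xenografts and the day 7 cultures in 3D (right). S100A8, S100A9 and S100P lie right of 0 in polyHEMA on both days, and in the xenografts S100P lies left of 0 against both cultures while S100A8 lies at 4.87 against MG7d, which did not detect it, and at -1.51 against PH7d.

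Between day 7 and day 4 no S100 gene met the limits in either culture, where 0.729% of all genes were higher and 0.164% lower in MG7d than in MG4d, and 0% either way in PH7d against PH4d. On polyHEMA 125 of 10970 genes had an unadjusted p under 0.05 in limma. Same-numbered arrays of PH7d and PH4d deviated together from their group means (r = 0.87), and the spread in this test includes that shared gap. With the replicate number as a block in these 2 groups alone, a fit added after the data were seen, 8 genes were higher in PH7d than in PH4d and 3 lower, with S100A8 among the 8. The largest day differences of the S100 genes were 2.73 for S100A8 and 1.05 for S100A9 between PH7d and PH4d, and -1.44 for S100A9 and -1.25 for S100P between MG7d and MG4d. The day 7 arrays did not overlap with the day 4 arrays in these cases. On polyHEMA they lay above for 5.59% of all genes and below for 3.84%, and in Matrigel above for 35.2% and below for 29.8%. S100A4 was 0.98 higher in MG7d than in MG4d.

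The other S100 genes were 11 with a probe, of which S100A5, S100A13 and S100A16 were detected. S100A1, S100A2, S100A7A, S100A7L2, S100A12, S100B, S100G and S100Z were detected on no array. S100A12 lies between S100A9 and S100A8 on chromosome 1 and is, like them, a gene of neutrophils. All 3 detected genes were lower in the xenografts than in 2D7d and met the limits, as 14.7% of all genes did. S100A16 was at 10.60 and 10.59 in the xenografts, against a mean of 12.075 in 2D7d, a difference of -1.48 ± 0.44 (adjusted p = 0.0346, limma). S100A13 was at 9.14 and 9.27 in the xenografts, against 10.80 and 10.77 in 2D7d, a difference of -1.58 ± 0.52 (adjusted p = 0.0432, limma). S100A5 was not detected in the xenografts and was at 7.20 and 7.40 in 2D7d, which is at least 3.361-fold lower on the background-corrected scale (adjusted p = 0.0129, limma), with log2 differences of -2.23 to -0.62 over the alternatives. Without any 1 of the 4 arrays all 3 calls were lost, with adjusted p of 0.0601 to 0.17 in limma. S100A5 was also lower in MG7d, by -1.53 (adjusted p = 0.0394, limma), with 0.109 to 0.208 without any 1 array. Against 2D7d the differences of these 3 genes ran from -1.73 to -0.96 in the 4 cultures, and both arrays of each culture lay below both of the monolayer for all 3 genes, as they did for 27.8% of all genes in PH7d, 26.6% in PH4d, 42.5% in MG7d and 44.9% in MG4d.

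Of the 21 S100 genes, 17 lie on chromosome 1, among them 9 of the 10 genes described here, while S100P lies on chromosome 4. In chromosome order, S100A10 and S100A11 come first, then S100A9, S100A12 and S100A8, then S100A7A, S100A7L2 and S100A7, and then the run from S100A6 to S100A1. Along this order the high values in PH7d stood at S100A9 and S100A8, with S100A11 before them at 0.12 and S100A6 after them at -0.25. Among the detected genes from S100A5 to S100A13, S100A4 stood at 0.16 in the xenografts against 2D7d (-0.04 with median scaling), while its neighbours S100A5 and S100A3 stood at -2.13 and -2.53.

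**Figure D4:**
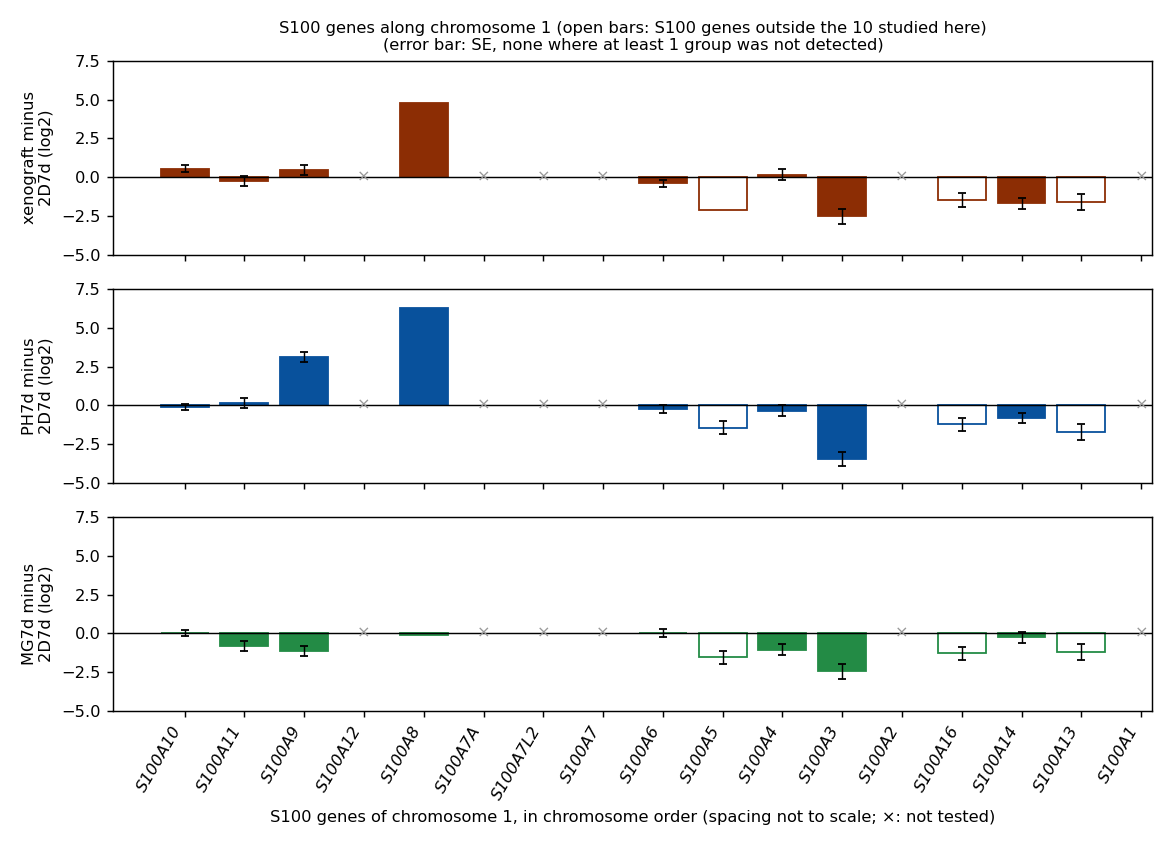
Difference in log2 level against 2D7d in the xenografts, PH7d and MG7d (panels from top to bottom) for the 17 S100 genes of chromosome 1 in chromosome order, with the SE as error bar, no error bar where at least 1 of the 2 groups did not detect the gene, and a cross where a gene was not tested. Filled bars are the genes described here and open bars are S100A5, S100A16 and S100A13. S100A9 and S100A8 stand out upward in PH7d at 3.11 and 6.30, the second against undetected signals of 2D7d, and the genes from S100A5 rightward are at or below 0.16 in each panel.

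The epidermal differentiation complex lies between S100A11 and S100A9 on chromosome 1 and holds the genes of the cornified envelope. Of 23 of its genes with a probe, SPRR1A, SPRR1B and SPRR3 were tested. SPRR3, a small proline-rich protein of the cornified envelope, was detected in the same groups as S100A8. It was at 8.25 and 8.37 in the xenografts, 9.02 and 8.53 in PH7d and 7.76 and 8.55 in PH4d, and was detected on no array of MG7d, MG4d and 2D7d. On the background-corrected scale SPRR3 was, against 2D7d, at least 4.44-fold higher in the xenografts (adjusted p = 0.00115, limma), at least 6.116-fold in PH7d (adjusted p = 0.00143, limma) and at least 3.986-fold in PH4d (adjusted p = 0.00389, limma). It was at least 8.444-fold higher in PH7d than in MG7d (adjusted p = 0.000365, limma). These calls stood without any 1 array, but the log2 differences fell below the bounds under some alternatives, where the smallest were 1.10 in the xenografts, 1.41 in PH7d and 1.02 in PH4d against 2D7d and 1.63 in PH7d against MG7d. SPRR1B was detected on 4 arrays, all of the xenografts or polyHEMA. SPRR1A and SPRR1B met the limits in no comparison, and FLG, HRNR and the 5 other genes that fuse an S100 domain to a repeat were not tested because no group detected them on both arrays.

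Epithelial alarm genes, which encode antimicrobial and antiprotease proteins, stress keratins, kallikreins and C/EBP factors, were read beside calprotectin. This list, like the other lists here, was chosen with earlier results of these data known. Its counts and medians beside all genes are therefore a description, from which nothing is read. The adjusted p-values of listed genes do not account for that choice. Of 14 tested, 8 were higher in PH7d than in MG7d and none was lower, where 5.57% and 3.84% of all genes were, with a median difference of 1.78 against -0.02 over all genes. In PH4d against MG4d 6 were higher and none was lower, where 8.33% and 3.91% of all genes were, with a median of 1.21 against -0.03. LCN2, which binds bacterial siderophores, was at 14.06 and 13.93 in PH7d, against 8.62 and 8.32 in MG7d, a difference of 5.52 ± 0.57 (adjusted p = 0.000924, limma). CEBPA, a C/EBP transcription factor of myeloid and epithelial differentiation, was higher in PH7d than in MG7d by 3.70 (adjusted p = 0.00341, limma). KLK7, a skin protease, was higher by 3.45 (adjusted p = 0.000362, limma) and KRT16, a stress keratin, by 3.18 (adjusted p = 0.00424, limma). The calls of these 4 genes stood without any 1 array. On day 4 CEBPA was at least 19.1-fold higher on the background-corrected scale in PH4d than in MG4d, which did not detect it (adjusted p = 0.00125, limma), though its log2 difference was as small as 2.41 over the alternatives. KLK7 was higher by 3.49 (adjusted p = 0.000327, limma), also without any 1 array. LCN2 and KRT16 were higher in PH4d by 3.41 and 2.65 (adjusted p = 0.00546 and 0.00694, limma), and without 1 array up to 0.058 and 0.0604.

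Against 2D7d, 4 genes of this list were higher in PH7d and 3 in PH4d, and none was lower on polyHEMA. Of all genes 3.87% were higher and 2.36% lower in PH7d, and 2.58% and 1.84% in PH4d. LCN2 was higher by 4.25 in PH7d (adjusted p = 0.00359, limma), at 14.06 and 13.93 against 9.72 and 9.78 in 2D7d. KLK7 was higher by 1.88 in PH7d (adjusted p = 0.00348, limma) and both calls stood without any 1 array. SERPINB1, an inhibitor of neutrophil elastase, and CEBPA were the others in PH7d, higher by 1.44 and 2.15, and were lost without some arrays (adjusted p up to 0.0577 and 0.24, limma). In PH4d, KLK7, SERPINB1 and CEBPA were higher, by 1.84, 1.23 and 2.49, with adjusted p up to 0.0633, 0.124 and 0.208 in limma without 1 array.

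In Matrigel the list had mostly lower genes against 2D7d, 5 in MG7d beside 1 that was higher, and 5 in MG4d beside none. Of all genes 10.3% were lower and 10.8% higher in MG7d, and 11.5% and 10.2% in MG4d. In MG7d KRT16 was lower by -3.01, KLK10 by -2.56, SLPI, an antiprotease of mucosal surfaces, by -2.08 and KLK7 by -1.57. The gene above the limits was IL1A, which was not detected in 2D7d and was at least 1.305-fold higher in MG7d on the background-corrected scale, with log2 differences of 0.47 to 2.03 over the alternatives. In MG4d KLK10, KRT16 and KLK7 were lower by -2.26, -2.18 and -1.65, and CEBPA, which MG4d did not detect, was at least 3.405-fold lower, with log2 differences of -2.65 to -0.71 over the alternatives. Without any 1 array each of these calls in Matrigel was lost, with adjusted p of 0.0791 to 0.205 in limma.

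In the xenografts the list had 1 gene higher and 4 lower against 2D7d, where 16.4% and 14.7% of all genes were. KLK6 was lower by -2.70 (adjusted p = 0.000102, limma) and SLPI by -3.64 (adjusted p = 0.00117, limma), and both calls stood without any 1 array. PI3 (elafin) and KLK10 were not detected in the xenografts, at least 5.65-fold and 9.659-fold lower than in 2D7d on the background-corrected scale, with log2 differences as small as -0.96 and -1.48 over the alternatives. These calls were lost without any 1 array (adjusted p of 0.0524 to 0.144, limma). CEBPA was higher by 1.56 (adjusted p = 0.0451, limma), which was also lost, at 0.087 to 0.221. LCN2 was at 8.44 and 8.48 in the xenografts, below 2D7d at 9.72 and 9.78, a difference that did not meet the limits. Against PH7d, 7 of the 14 were lower in the xenografts and none was higher, where 3.99% and 3.35% of all genes were, led by LCN2 at -5.53 (adjusted p = 0.000534, limma) and SLPI at -4.09 (adjusted p = 0.000513, limma). S100A8 and SPRR3 were thus above 2D7d in the xenografts where LCN2 was not, and PH7d had all 3 above 2D7d. Against MG7d, KRT16 and CEBPA were higher in the xenografts by 3.88 and 3.11 (adjusted p = 0.00186 and 0.00901, limma) and KLK6 was lower by -1.62 (adjusted p = 0.00196, limma), where 3.32% of all genes were higher and 2.44% lower, and of these CEBPA was lost without any 1 array (0.056 to 0.105). DEFB1, a defensin, was detected on both arrays of PH7d and on 1 array of PH4d and nowhere else, and met the limits in no comparison.

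**Figure D5:**
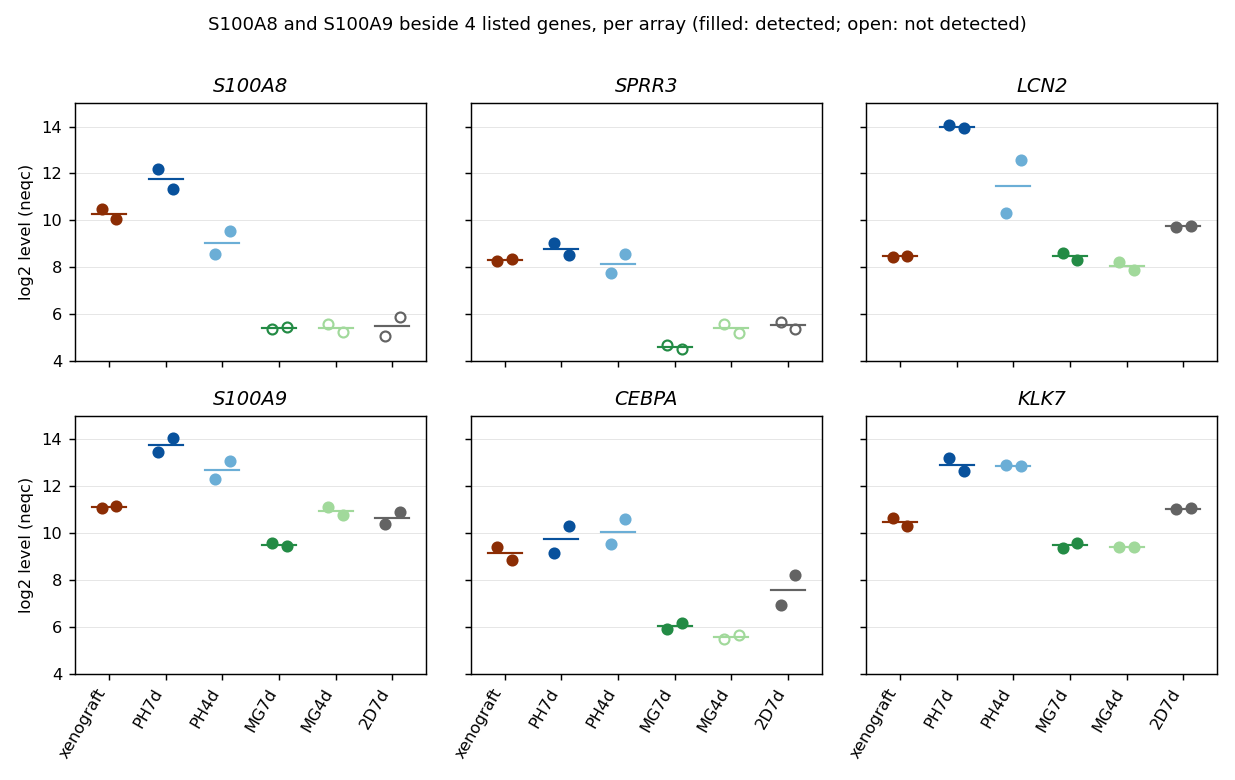
Log2 level of S100A8 and S100A9 and of 4 listed genes (SPRR3, LCN2, CEBPA, KLK7) on each array, with growth conditions on the horizontal axis, filled points for detected and open points for not detected, and bars for means of 2 arrays. SPRR3 is open in the same 3 groups as S100A8, and LCN2 is at 8.44 and 8.48 in the xenografts but at 14.06 and 13.93 in PH7d.

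The proteins that S100 proteins bind were 17 genes with a probe, of which 14 were tested. The receptors AGER and TLR4 were detected on no array, as was PLG, the plasminogen gene. ANXA2, which forms a tetramer with S100A10, was at 14.68 and 14.75 in the xenografts and at 13.90 to 14.32 in the cultures, and met the limits in no comparison. ANXA6, a partner of S100A6, was detected on both xenograft arrays, at 5.70 and 5.59, and on no other. ANXA1, the partner of S100A11, was higher in the xenografts than in 2D7d by 2.36 (adjusted p = 0.0456, limma), at 13.39 and 13.36 against 11.10 and 10.92. PLAT, the tissue plasminogen activator, which S100A10 binds at the cell surface, was lower in the xenografts by -3.43 (adjusted p = 0.00881, limma) and in MG4d by -2.23 (adjusted p = 0.035, limma). BSG (basigin), a receptor for S100A9, was lower in the xenografts, MG7d and MG4d by -1.39, -1.54 and -1.49 (adjusted p = 0.0273, 0.033 and 0.0271, limma). IQGAP1, which binds S100P, was higher in the xenografts by 2.02 (adjusted p = 0.0356, limma). Without any 1 array, each of these calls against 2D7d was lost, with adjusted p of 0.0596 to 0.197 in limma.

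CACYBP, which binds S100A6, and COPS5 (JAB1), which binds S100A7, were higher in MG4d than in 2D7d, by 1.73 and 1.88 (adjusted p = 0.0422 and 0.0436, limma), and both were lost without any 1 array (0.111 to 0.204). AHNAK, a giant scaffold that S100A10 and annexin A2 bind, was higher in MG7d than in 2D7d by 1.02 (adjusted p = 0.0436, limma), also lost without any 1 array. It was lower in PH7d than in MG7d by -1.89 (adjusted p = 0.00533, limma) and higher in the xenografts than in PH7d by 1.78 (adjusted p = 0.00725, limma). The call against MG7d was lost without replicate 1 of MG7d (adjusted p = 0.0608, limma) and that against PH7d without replicate 2 of the xenografts (adjusted p = 0.0873, limma). On polyHEMA against 2D7d none of the 14 partners met the limits on either day, where 6.24% of all genes did in PH7d and 4.42% in PH4d. In the xenografts 2 were higher than in 2D7d and 2 lower, where 16.4% and 14.7% of all genes were. In MG4d 2 were higher and 2 lower, where 10.2% and 11.5% of all genes were. In MG7d it was 1 each way, where 10.8% and 10.3% were.

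Since calprotectin is also a product of myeloid cells, 11 myeloid marker genes were read on the same arrays. PTPRC (CD45), LYZ, CSF3R, MPO and ELANE were detected on no array. FCGR3B, an Fc receptor gene of neutrophils, was detected on all 12, at mean levels of 7.42 in the xenografts, 7.49 in PH7d, 7.60 in PH4d, 7.54 in MG7d, 7.51 in MG4d and 8.17 in 2D7d, and met the limits in no comparison. Between 4 and 5 of the 11 were detected on both arrays of a group. The normalized levels were taken back from the log2 scale and summed over the 11 genes, undetected ones included. The sum was 1555 to 1577.5 in the xenografts, 1156.5 to 1554.4 in PH7d and 1142.8 to 1803.5 in PH4d. It was 1225.8 to 1242.9 in MG7d, 1017.9 to 1048.9 in MG4d and 1262.1 to 1334.6 in 2D7d. In the xenografts AIF1, a macrophage gene, was at 7.79 and 8.03, against 5.52 and 6.15 in 2D7d, a difference of 2.07 (adjusted p = 0.00794, limma). MG7d and PH7d did not detect AIF1. On the background-corrected scale the xenografts were at least 4.646-fold above MG7d and 4.496-fold above PH7d (adjusted p = 0.0018 and 0.00466, limma). Against 2D7d and PH7d the call was lost without some arrays. All these AIF1 calls were lost with the authors' processed values. Against 2D7d CD68 was higher in the xenografts by 1.12 (adjusted p = 0.0136, limma) and CD14 lower by -1.50 (adjusted p = 0.0483, limma), both lost without any 1 array. CD14 was also lower in the xenografts than in MG7d and PH7d, by -2.11 and -2.38 (adjusted p = 0.0453 and 0.024, limma). Both calls were lost without some arrays and with the authors' processed values. CSF1R was at 8.60 and 8.71 in the xenografts, against 8.46 and 8.29 in 2D7d. It was called lower in MG4d than in 2D7d, by -1.13 (adjusted p = 0.0431, limma), which was lost without any 1 array. In PH4d CSF1R was called higher than in MG4d, by 1.53 (adjusted p = 0.018, limma). This call was lost without replicate 2 of PH4d, without either array of MG4d and with the authors' processed values. In PH7d and PH4d, where S100A8 was detected on all 4 arrays, AIF1 was detected on none. ITGAM was detected on the 4 polyHEMA arrays and on 1 array of 2D7d, but on no xenograft array. The probes are for human genes and the host cells are of the mouse, and how far the probes read mouse RNA was not tested. Markers that went undetected in the xenografts therefore do not tell whether myeloid cells of the host were present. Whether host RNA contributes to the xenograft signal of S100A8 was not tested.

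Genes outside the family with the most similar levels were sought over the 12 arrays by Pearson's r among 10958 genes, as a description. S100P was closest to FXYD3 (r = 0.99), CYP1A1 (r = 0.98) and ID1 (r = 0.97), and ID1 ran from 7.42 to 13.33. S100A8 was closest to FMO4, CFB, a complement component, and ARHGEF37 (r = 0.97 each), and CFB ran from 6.76 to 13.15. S100A9 was closest to BRK1, RNF4BP and PSME2, a proteasome activator subunit (r = 0.95, 0.94 and 0.94). S100A3 was closest to SLC43A3, SOCS3 and KHDC1L (r = 0.97, 0.96 and 0.95), and S100A4 to COL18A1, FSTL3 and COPG1 (r = 0.97 each). S100A14 was closest to ELFN2, ARAP3 and HMGA1 (r = 0.98, 0.95 and 0.95) and S100A11 to SWSAP1, NUDT18 and ACOT1 (r = 0.97 each). S100A6 was closest to ECHDC3, INTS1 and INF2 (r = 0.95, 0.92 and 0.92) and S100A10 to UCN2, PRSS23 and ANO1 (r = 0.94, 0.93 and 0.93). The arrays form 6 groups, so these values follow the group means, and the level of some, such as FMO4 at 4.51 to 7.12 and UCN2 at 4.45 to 5.69, reached down to that of undetected probes.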

How the data were processed

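RNA of 12 samples was hybridised to Illumina HumanHT-12 v4 arrays. The deposited table of non-normalized intensity values by the authors gives each probe's mean bead signal, with no background subtracted, and the deposited p-value beside it is that of detection over the array's negative controls. The authors' series matrix holds processed log2 values (lumi variance stabilization and quantile normalization, version and low-signal scale not given in the sources used here). In it, 38524 of 47323 rows stand under another probe ID, the 12 probes of the S100 genes included. Its rows were therefore matched by rank on all 12 arrays and used only as an alternative.

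The function neqc (limma 3.58.1, R 4.3.3) corrected the intensities for background with the detection p-values, added an offset of 16, normalized them by quantiles and took log2. Symbols came from the platform annotation (30113 probes with 1 symbol, 8 with several, 17202 unnamed). Probes detected (p under 0.01) on both arrays of a group were kept, and the brightest stood for its gene, which left 10970. A linear model with 6 group means and eBayes gave each comparison, checked on simulated data. Alternatives were the authors' values, no background correction, an offset of 50, median scaling, no detection filter, the mean of probes, the replicate number as a block and leaving out arrays. Replicate numbers follow the accession order. The number of arrays limits the precision.

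The 10 genes and all lists were chosen with earlier results of these data known. Named are the 10 genes, listed genes that met the limits (the 4 largest each way) or went undetected in a group, and the 3 most correlated genes per S100 gene. FLG, HRNR, SPRR1A and ANXA2 were named in addition, after their values were seen.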

Additional observations from a re-analysis of the deposited data

Results flagged for a closer look

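S100A9 was flagged because its day difference ran in opposite directions in the 2 cultures in 3D. Both PH7d arrays lay above both PH4d arrays, with a difference of 1.05 on the log2 scale, and both MG7d arrays lay below both MG4d arrays, with a difference of -1.44. The first held for 5.59% of all genes and the second for 29.8%. The difference between these 2 day differences was not tested for S100A9, since the gene was chosen with its values known. Over all 10970 genes, the limma test of this kind of difference passed for 3, with 630 at an unadjusted p under 0.05. It passed for 0 of the 48 listed genes outside the 10 S100 genes. The fit had no replicate block, so its spread includes the gap that same-numbered arrays of PH7d and PH4d shared. The number of genes that passed can therefore be too low.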

How the results depend on the processing

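Over 45 differences of S100 genes against 2D7d, 486 alternative values were computed. Of these, 0 changed the sign of a called difference, 429 moved by less than the spread between replicates and 57 moved by more. Leaving out 1 array cannot move a difference by more than this spread. The replicate block and the absent detection filter leave these differences as they are. Much of the 429 was thus fixed by the settings themselves, and no stability is read from it. With the authors' processed values S100A8 was 4.08 above 2D7d in PH7d, 1.63 in PH4d and 2.61 in the xenografts, and S100A3 was at -1.55, -1.56 and -1.32, with all these calls kept. Of 31 calls of S100 genes, 29 were kept with the authors' values, 31 when background was left in, when the offset was 50, when probes of a gene were averaged and with the replicate block, 28 with no detection filter and 26 with median scaling. S100P in PH7d and PH4d was lost with median scaling, at 1.39 and 1.43, as were S100A11 in MG4d and S100A9 in MG7d and between the xenografts and MG7d. With median scaling the median difference of all genes from 2D7d was 0.05 to 0.21, against -0.07 to 0.05 with quantile normalization.

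Leaving out 1 array, or the same replicate of both polyHEMA groups, gave 0 S100 genes called in MG4d and in MG7d against 2D7d, 1 to 5 in PH4d, 3 to 5 in PH7d and 2 in the xenografts. The range was 2 in the xenografts against MG7d, 2 to 4 in the xenografts against PH7d, 2 to 5 in PH4d against MG4d, 3 to 4 in PH7d against MG7d, 0 to 1 in PH7d against PH4d and 0 in MG7d against MG4d. Of 84 calls of listed genes, 24 stood without any 1 array. Deviations from the group means correlated between same-numbered arrays by -0.12 to 0.87 over 15 pairs of groups, and 8 were over 0.1, so equal numbers were not taken as pairs. With the replicate block 4 S100 genes were called in MG7d against 2D7d and 5 in PH4d against MG4d, and the counts of the other 9 comparisons were the same. The 0.87 was between PH7d and PH4d, and with the replicate block in PH7d and PH4d alone, chosen after seeing the data, 1 S100 gene, S100A8, was called between them and 886 of 10970 genes had an unadjusted p under 0.05 (limma), against 125 with no block. With 2 arrays per group, signals at the negative controls limit S100A3, S100A7 and S100A8 in their dim groups.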
